A study of Mus musculus with 18 samples.

Results

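Matrix proteases, their inhibitors and the fibrillar collagen gene Col5a1 were followed in eosinophils of the mouse small intestine. The 10 genes were taken by symbol from a table of 22708 genes: the matrix metalloproteinases Mmp25, Mmp27, Mmp8 and Mmp9, the tissue inhibitors Timp1 and Timp2, the membrane-bound ADAM proteases Adam8 and Adam17, the secreted protease Adamts10, and Col5a1. The study sorted CD11b+ MHC-II- SiglecF+ SSChi cells from the small intestine of mice with and without AHR, the aryl hydrocarbon receptor, a transcription factor activated by ligands from food, microbes and the environment. RNA was sequenced in bulk from 18 libraries of strain C57/BL6, with 6 WT, 6 Ahr-/- and 6 labelled Ahrr-/-, the last after Ahrr, which encodes a repressor of AHR, and each genotype had 3 females (F1 to F3) and 3 males (M1 to M3). Mice in the study were 6 to 14 weeks old, and no group received a treatment.

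The study's Ahr-/- and WT mice were neither littermates nor housed together, so litter and housing cannot be told apart from genotype. The knockouts affect every cell of the mouse, not eosinophils alone. The authors' table gives counts after a variance-stabilizing transformation to a log2 scale, where 5.02 stands for a count of 0, and whole counts were recovered from it. Total counts ran from 3842977 to 8149200 in WT, from 6581818 to 10284124 in Ahr-/- and from 8788867 to 12046933 in the libraries labelled Ahrr-/-. Counts of genes near the floor are thus least precise in WT. In bulk RNA, fewer cells of a type and less RNA per cell cannot be told apart.

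Matrix metalloproteinases and ADAM proteases are zinc enzymes that cut collagens, other matrix proteins and proteins of the cell surface. Most are made as inactive precursors, and TIMPs bind and block the active enzymes, so RNA gives the supply of precursor and not the activity. Eosinophils take part in tissue repair and fibrosis, where matrix is cut and laid down.

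The genes for which the knockouts are named were examined before the proteases. Ahr had 6764 to 21536 counts in WT, 20189 to 28752 in Ahr-/- and 13191 to 24943 in the libraries labelled Ahrr-/-. Ahrr had 550 to 1024 counts in WT, 0 to 10 in Ahr-/- and 1104 to 2151 in the libraries labelled Ahrr-/-. A count over a whole gene checks neither deletion, since the deleted part is not given in the sources used here, and genotypes are used as labelled. Of 4 AHR target genes tested, 4 were lower in Ahr-/- than in WT and 0 differed between WT and the libraries labelled Ahrr-/- (limma, adjusted p below 0.05), among them Cyp1b1 with 218 to 917 counts in WT and 1 to 5 in Ahr-/-.

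The eosinophil label was checked against 11 marker genes. Their summed normalized count had a median of 35156 in WT, 44812 in Ahr-/- and 32153 in the libraries labelled Ahrr-/-, with lows of 24975 in WT F1 and 14379 in M3 labelled Ahrr-/-. Alox15 held 53.2% of the sum and the eotaxin receptor Ccr3 33.6%, and Siglecf and Il5ra had counts in every library. Among granule genes, mean normalized counts were 10.2 for Epx and 4.05 for Prg3, and Ear6 was at 0 in 16 of 18 libraries, but Prg2 had a mean of 268 and was higher in Ahr-/- than in WT without overlap (-2.30, limma adjusted p = 3.47e-07). Of 11 neutrophil markers, Retnlg held 96.8% of the sum, whose median was 36175 in WT, 84383 in Ahr-/- and 35641 in the libraries labelled Ahrr-/-. S100a8, S100a9 and Cxcr2 had counts in every library, while Ly6g was at 0 in 13, Mpo in 14, Camp in 13 and Elane in 17 of 18. Retnlg was higher in Ahr-/- than in WT (-1.21, limma adjusted p = 0.00453), and S100a8 (-2.06) and S100a9 (-2.10) were higher in the libraries labelled Ahrr-/- than in WT, each without overlap.

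Several libraries stood apart. Of 1098 olfactory and vomeronasal receptor genes, 74.0% had a read in WT F3 and 55.4% in Ahr-/- F3, against 5.37% to 22.9% in the other 16 libraries. In these F3 libraries 20244 and 19694 genes had reads, so low counts there include more of such low-level signal. The sum of 7 enterocyte markers, led by Epcam, was 12356 in F3, 15903 in M1 and 12927 in M3 labelled Ahrr-/-, against medians of 3566 in WT and 3515 in Ahr-/-. The sum of 10 fibroblast markers, led by Fn1, had medians of 188 in WT, 176 in Ahr-/- and 542 in the libraries labelled Ahrr-/-, where it reached 1977 in M3. Lum was at 0 in 10 and Pdgfra in 6 of the 18 libraries. Where leaving these libraries out together changed a member's call, values with and without them are given, a choice made after seeing the data.

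**Figure D1:**
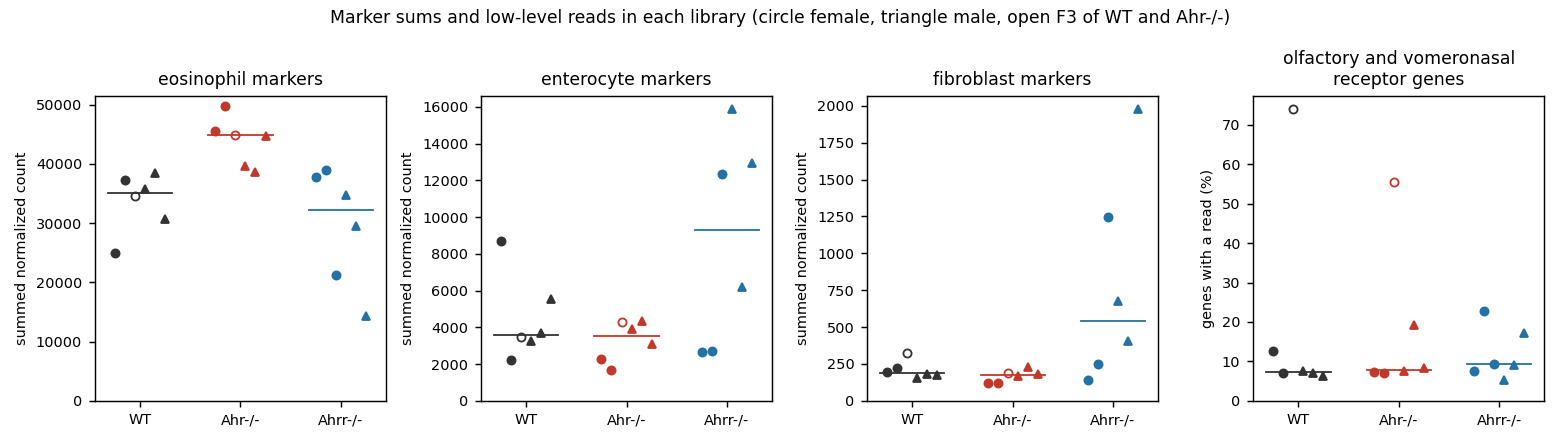
Summed normalized counts of eosinophil, enterocyte and fibroblast markers and the percentage of receptor genes with a read, for each library (lines are medians of 6). Enterocyte sums reached 15903 in the libraries labelled Ahrr-/-, and 74.0% of receptor genes had a read in WT F3.

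Per kilobase of exon, Mmp25 had the highest median of the members in WT and ranked 105 of 22187 genes. In WT the median normalized count per kilobase was 1980 for Mmp25, 1200 for Adam8 and 1060 for Mmp9, and the range of Adam8 (976 to 1920) overlapped those of both Mmp25 (1580 to 2130) and Mmp9 (959 to 1190). Adam17 followed at 93.4 per kilobase. Mmp27 (52.4) and Timp2 (33.3) came next with overlapping ranges, as did Mmp8 (17.2) and Adamts10 (16.1), and Col5a1 (6.96) and Timp1 (2.26) were lowest. The order changed in Ahr-/-, where Adam8 (1480 per kilobase) and Mmp9 (1290) had higher medians than Mmp25 (860), with the ranges of Mmp9 and Mmp25 overlapping, and Col5a1 (0.791) was last beside Timp1 (0.854). In the libraries labelled Ahrr-/- Mmp25 (1750 per kilobase) again had the highest median, with a range of 930 to 2680 that overlapped those of Adam8 and Mmp9. This order holds among the 10 members only: the ADAM gene Adamdec1, outside them, had a mean of 8870 per kilobase in WT against 1900 for Mmp25.

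**Figure D2:**
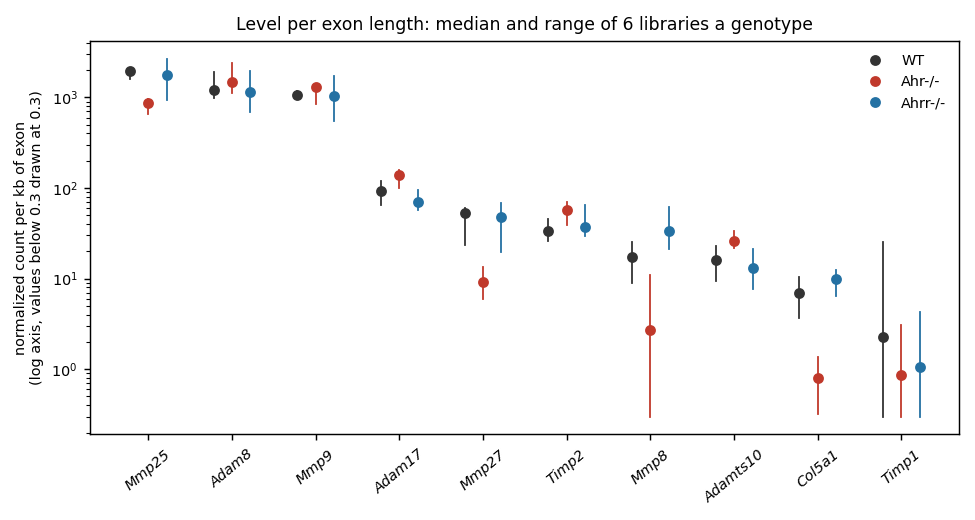
Normalized counts per kilobase of exon on a log axis, with the median (point) and range (line) of 6 libraries a genotype and values below 0.3 drawn at 0.3. Mmp25, Adam8 and Mmp9 have the 3 highest medians in every genotype, with Mmp25 (860) nearest to Adam17 (139) in Ahr-/-.

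Differences were tested with limma on the deposited scale, with sex in the model and p adjusted over all genes tested, and a gene was tested when its mean was at least 1 above the floor. Of the 10 members 9 were tested in every comparison, and Timp1 lay below this minimum. In Ahr-/- alone the means of Mmp8 (5.62) and Col5a1 (5.68) were also below it, so both were tested against Ahr-/- only through the other genotype. Between WT and Ahr-/-, 7 of the 9 had an adjusted p below 0.05, beside 8.84% of the 11346 genes tested. Of these, 4 were higher in WT (Mmp25, Mmp27, Mmp8, Col5a1), beside 3.68% of genes, and 3 were higher in Ahr-/- (Timp2, Adam17, Adamts10), beside 5.16%. For Mmp25, Mmp27 and Col5a1 the groups did not overlap, as for 4.51% of genes. The 10 genes were picked with earlier results of these data known, so these counts describe the choice as well as the genes. Leaving out WT F3 or Ahr-/- F2, or F3 of both genotypes, gave 4 called members in place of 7.

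Between WT and the libraries labelled Ahrr-/-, 0 of the 9 members passed with limma, as did 0.0779% of the 11546 genes tested, and the groups overlapped for each of the 9, while 0.459% of genes had no overlap. At an unadjusted p under 0.05, limma gave 1 member (Mmp8) and 853 genes, and limma voom on the recovered counts also gave 0 members at an adjusted p below 0.05. Without F3, M1 and M3 labelled Ahrr-/- the sign of the difference turned for Mmp25 (-0.18), Mmp27 (-0.21), Mmp9 (-0.19), Adam8 (-0.29) and Adamts10 (-0.10), and none of these was called. Between Ahr-/- and the libraries labelled Ahrr-/-, 6 of 9 passed, beside 14.9% of 11474 genes. Adam17 and Adamts10 were the 2 higher in Ahr-/-, beside 6.84% of genes, and Mmp25, Mmp27, Mmp8 and Col5a1 were the 4 higher in the libraries labelled Ahrr-/-, beside 8.04%. The groups did not overlap for 5 of the 6, all but Mmp25, beside 4.61% of genes. In this comparison 6 of 6 eosinophil markers tested were higher in Ahr-/-, with a median difference of 0.74. Of these, 4 were called, Alox15, Il5ra, Prg2 and Siglecf, and Alox15 lost the call in 10 of 23 alternatives. Scaling moved the direction of calls over the whole table here: 46.0% of called genes were higher in Ahr-/-, and 55.7% after quantile normalization, while the same 6 members passed with the same directions. The comparisons share libraries, WT in the first pair and Ahr-/- or the libraries labelled Ahrr-/- in the others, so they are not independent of each other.

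**Figure D3:**
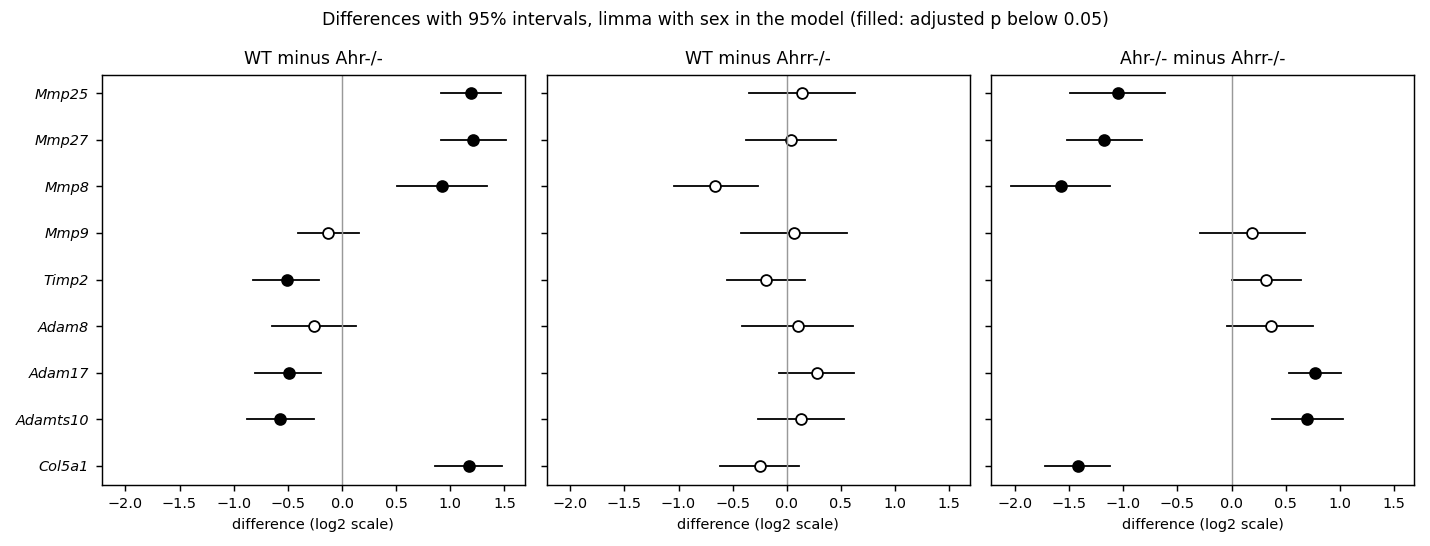
Difference between genotypes on the log2 scale for the 9 members tested, with 95% intervals from limma (filled points have an adjusted p below 0.05). In WT minus Ahr-/-, 4 members lie above 0 and 3 below among filled points, and none is filled in WT minus Ahrr-/-.

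Mmp25 encodes a metalloproteinase held in the membrane by a lipid anchor and known from neutrophils and other leukocytes. The gene lies at chr17:23628315-23645269 on the minus strand. Its value on the log2 scale (lowest, median, highest) was 13.04, 13.36 and 13.47 in WT, 11.79, 12.17 and 12.34 in Ahr-/-, and 12.29, 13.19 and 13.80 in the libraries labelled Ahrr-/-. Each WT library lay above each Ahr-/- library, and M3 labelled Ahrr-/- (12.29) fell inside the Ahr-/- range. The mean normalized count was 10100 in WT against 4390 in Ahr-/-, 2.29-fold higher, and the log2 difference had a 95% interval of 0.91 to 1.47 (limma adjusted p = 2.45e-05). Ahr-/- lay below the libraries labelled Ahrr-/- by a difference of -1.05 (SE 0.20, limma adjusted p = 0.00492). Between WT and the libraries labelled Ahrr-/- the difference was 0.14 with a 95% interval of -0.35 to 0.63. These calls held without F3 of WT and Ahr-/- (1.20, limma adjusted p = 0.000428), and without F3, M1 and M3 labelled Ahrr-/- the difference from Ahr-/- was -1.35.

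Bicdl2, a gene on the opposite strand whose span overlaps that of Mmp25, shares 0 exon bases with it. It had 40 to 65 counts in WT, 12 to 27 in Ahr-/- and 104 to 169 in the libraries labelled Ahrr-/-, and differed by 0.91 between WT and Ahr-/- (limma adjusted p = 0.000171). The library kit does not mark strand, so where the spans overlap, reads of the introns of Mmp25 and reads of Bicdl2 cannot be told apart. The next gene along the chromosome, Thoc6, 23348 bases away, differed by -0.13 (SE 0.13, limma adjusted p = 0.603), and Zscan10, 17295 bases away on the other side, was below the minimum.

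Mmp27 and Mmp8 are neighbours in a cluster of metalloproteinase genes on chromosome 9, on the same strand with 2909 bases between them (Mmp8 at chr9:7558429-7568486, Mmp27 at chr9:7571396-7581885). MMP8 is a collagenase that cleaves fibrillar collagen, best known from neutrophil granules, and MMP27 is a little-studied enzyme related to the stromelysins. The values of Mmp27 were 6.75, 7.45 and 7.58 in WT, 5.93, 6.14 and 6.35 in Ahr-/-, and 6.61, 7.36 and 7.72 in the libraries labelled Ahrr-/-. In counts this was 44 to 125, 14 to 39 and 52 to 186. No Ahr-/- library reached the lowest library of either other genotype, and WT F1 (6.75) lay apart from the next WT library (7.30). Mean normalized counts of Mmp27 were 107 in WT, 20.6 in Ahr-/- and 104 in the libraries labelled Ahrr-/-, so WT was 5.18-fold higher than Ahr-/-. The limma difference, which the deposited scale shrinks for low counts, was 1.21 (SE 0.14, adjusted p = 3.57e-05) for WT and Ahr-/- and -1.18 (SE 0.16, adjusted p = 0.0003) for Ahr-/- and the libraries labelled Ahrr-/-. With limma voom, which models log2 counts, the first was 2.38.

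Mmp8 had 18 to 51 counts in WT, 0 to 28 in Ahr-/- and 83 to 153 in the libraries labelled Ahrr-/-. On the log2 scale the values were 6.16, 6.58 and 6.88 in WT, 5.02, 5.64 and 6.28 in Ahr-/-, and 6.73, 7.11 and 7.70 in the libraries labelled Ahrr-/-. The highest Ahr-/- library was F3 with 28 counts, the library with many reads of receptor genes, and it alone overlapped WT, while Ahr-/- F2 had 0. Ahr-/- F3 also had the highest normalized counts of its group for the neutrophil markers S100a8 (719, median 101), S100a9 (1070, median 208) and Ltf (80.1, median 17.8). Library F2 labelled Ahrr-/-, the highest of its group for Mmp8, was the highest there for these markers too. Over all 18 libraries, deviations of Mmp8 and of the neutrophil sum from the genotype-by-sex means had r = 0.10 (rho = 0.22, r = 0.09 without 2 libraries). Retnlg held 96.8% of that sum. Mean normalized counts of Mmp8 were 41.3 in WT and 8.67 in Ahr-/-, a 4.76-fold difference, with a limma difference of 0.92 (SE 0.20, adjusted p = 0.00677). Without Ahr-/- F3 the Ahr-/- mean was 5.13, the ratio 8.05-fold and the limma difference 1.07. Without WT F3, Mmp8 fell below the minimum and was not tested. The libraries labelled Ahrr-/- had a mean of 94.2, 10.9-fold above Ahr-/-, or 18.4-fold without Ahr-/- F3 (difference over all libraries -1.58, SE 0.22, limma adjusted p = 0.000322). They also lay above WT in 5 of 6 libraries, by 2.28-fold in mean normalized counts, but the difference of -0.66 (95% interval -1.04 to -0.27) did not pass adjustment over all genes (limma adjusted p = 0.429). Of 7 neutrophil markers tested between WT and the libraries labelled Ahrr-/-, 6 were higher in the latter, as Mmp8 was. Their median difference was -0.5, and Cxcr2 (-0.50) and Ltf (-0.38), neither called, were among the 6. Lcn2 had a median normalized count of 30.6 in the libraries labelled Ahrr-/- against 6.66 in WT. S100a8 (limma adjusted p = 0.000667) and S100a9 (limma adjusted p = 0.00022) were higher in these libraries than in WT, Retnlg differed by 0.07, and Ngp had a median normalized count of 9.67 there against 20.8 in WT. Between WT and Ahr-/- the called markers Retnlg (-1.21) and Cxcr2 (-0.65) ran opposite to Mmp8. Between Ahr-/- and the libraries labelled Ahrr-/-, S100a8 (-1.73, limma adjusted p = 0.0103) and S100a9 (-1.69, limma adjusted p = 0.00305) were called in the direction of Mmp8. Retnlg (1.29) was called in the opposite direction, and 5 of the 7 markers tested were higher in the libraries labelled Ahrr-/-. The part of neutrophil RNA in the Mmp8 values was not tested.

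The flanking cluster genes Mmp10 and Mmp20, 48186 and 46345 bases away, were below the minimum. An annotated noncoding RNA, Gm31751, overlaps both Mmp8 and Mmp27 and was not analysed here. Although adjacent, Mmp27 and Mmp8 did not vary together among libraries of a group: the correlation of their deviations from the genotype-by-sex means was r = 0.05 (rho = 0.17) over 18 libraries.

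The promoters of the metalloproteinase genes that were lower in Ahr-/- are shown because AHR with its partner ARNT binds DNA at a short core. These are the 250 bases before the annotated start, read from RefSeq GRCm38.p6 in the direction of transcription, at chr17:23645270-23645519 (minus strand) for Mmp25, chr9:7571146-7571395 (plus strand) for Mmp27 and chr9:7558179-7558428 (plus strand) for Mmp8. Capitals mark the core GCGTG where it occurs.
Mmp25: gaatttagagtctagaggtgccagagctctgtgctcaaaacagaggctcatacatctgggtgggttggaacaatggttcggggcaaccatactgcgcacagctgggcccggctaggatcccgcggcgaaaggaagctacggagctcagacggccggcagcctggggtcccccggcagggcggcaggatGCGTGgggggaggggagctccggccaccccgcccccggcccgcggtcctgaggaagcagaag
Mmp27: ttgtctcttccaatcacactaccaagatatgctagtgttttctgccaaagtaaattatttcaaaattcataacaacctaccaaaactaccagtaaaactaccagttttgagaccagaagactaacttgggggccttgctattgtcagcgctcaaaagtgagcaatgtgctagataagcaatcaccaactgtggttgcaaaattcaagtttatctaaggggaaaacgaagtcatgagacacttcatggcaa
Mmp8: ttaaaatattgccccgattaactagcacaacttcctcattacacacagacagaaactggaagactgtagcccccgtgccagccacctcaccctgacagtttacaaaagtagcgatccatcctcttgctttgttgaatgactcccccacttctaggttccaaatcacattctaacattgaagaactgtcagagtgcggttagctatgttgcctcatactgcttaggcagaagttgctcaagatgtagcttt
The Mmp25 window held GCGTG once, on the strand of the gene and 62 bases before its start, and the windows of Mmp27 and Mmp8 held it on neither strand. G and C made up 66.0% of the Mmp25 window, 38.8% for Mmp27 and 44.8% for Mmp8. Of 32851 promoter windows of this length, 9250 (28.2%) held GCGTG on either strand, and 1347 (4.1%) held the longer TNGCGTG, which was in no member's window. A promoter window was available for 8 of the 10 members, and not for Mmp9 or Adamts10. The window of Adam8 (chr7:139992563-139992812) lies wholly inside the gene span given here, so the bases before that span were not searched at all. The window of Col5a1 (chr2:27886175-27886424) reaches into its span, so the bases before it were not fully searched. GCGTG was in 4 of the 8 windows, those of Mmp25, Timp1, Timp2 and Adam17, and not in those of Adam8 or Col5a1. Of these 4 genes 1 was lower and 2 were higher in Ahr-/- than in WT, and Timp1 was not tested. The match is a description of letters and says nothing about binding.

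Mmp9 (chr2:164940326-164955850, plus strand) encodes a gelatinase that degrades denatured collagen and basement membrane and is released by granulocytes. Its values were 11.76, 11.89 and 12.07 in WT, 11.57, 12.17 and 12.31 in Ahr-/-, and 10.99, 11.86 and 12.60 in the libraries labelled Ahrr-/-. WT was narrow, and the other genotypes spread to both sides of it, with 4 Ahr-/- libraries above and the others below. The difference between WT and Ahr-/- was -0.13 with a 95% interval of -0.41 to 0.16 (limma adjusted p = 0.609), and between Ahr-/- and the libraries labelled Ahrr-/- it was 0.19 (SE 0.23). A difference in Mmp9 of the size seen for Mmp25 between WT and Ahr-/- lies outside this interval.

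**Figure D4:**
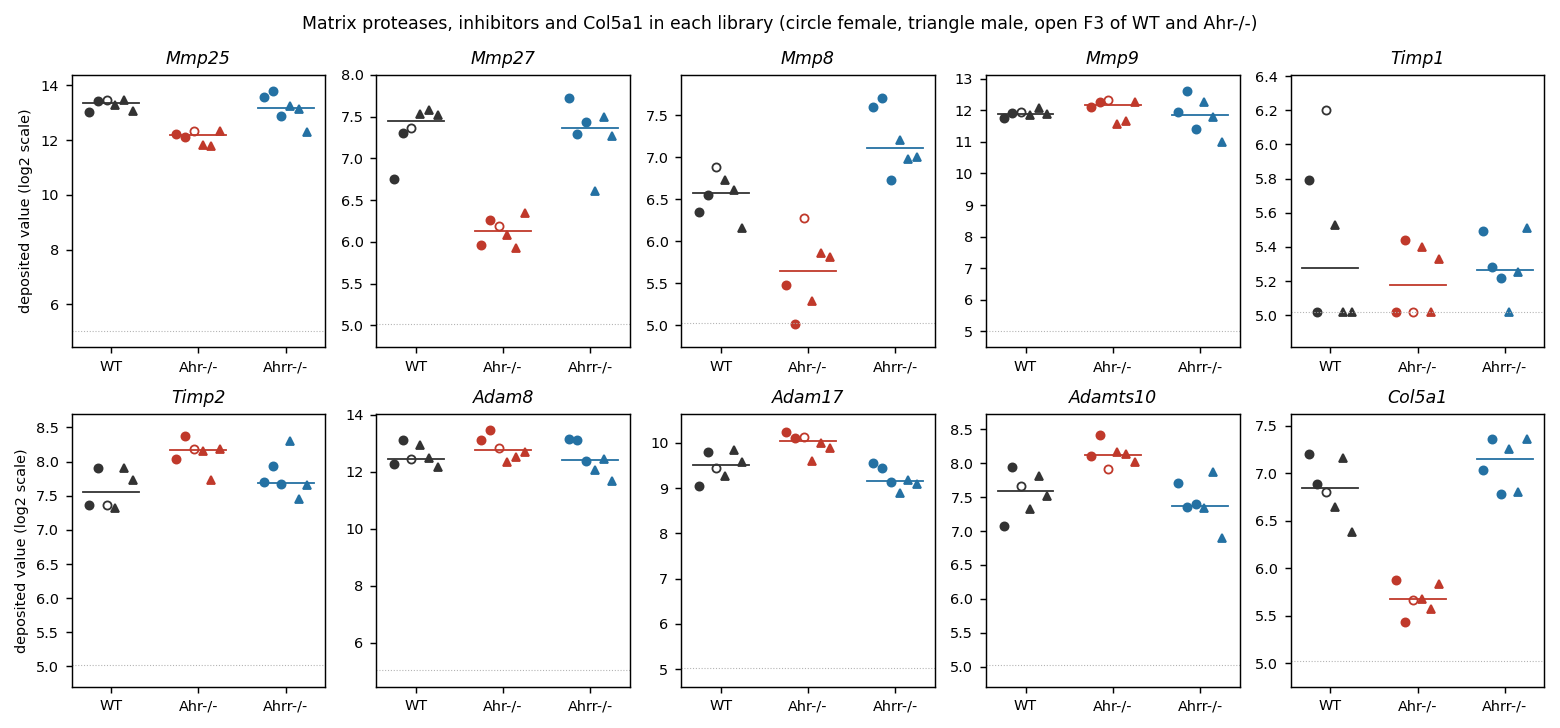
Deposited log2-scale value of each member in each of the 18 libraries, with a line at the median of 6 and a dotted line at the floor of 5.02 (vertical scales differ between panels). Mmp25, Mmp27 and Col5a1 separate WT from Ahr-/-, while Timp1 stays near the floor.

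Among 23 metalloproteinase genes listed, 8 passed the minimum, and 3 were called between WT and Ahr-/-, all of them members, with a median difference of 0.37 against 0.00 over all genes. Between Ahr-/- and the libraries labelled Ahrr-/- 4 of 8 were called, all higher in the latter, with a median of -0.80. The fourth was Mmp7, matrilysin, an epithelial enzyme, whose difference of -1.49 (limma adjusted p = 0.00875) was -0.81 (adjusted p = 0.0799) without F3, M1 and M3 labelled Ahrr-/-, the libraries with high enterocyte markers. Of 9 macrophage and dendritic cell markers tested in this comparison 3 were called, Cd68 (-0.67) and C1qb (-1.06) higher in the libraries labelled Ahrr-/- and Itgax (0.61) higher in Ahr-/-, with C1qb and Itgax losing the call in 16 of 22 and 10 of 23 alternatives. The part of RNA from enterocytes or macrophages in these differences was not tested. For Mmp25, Mmp27 and Mmp8 the differences without these libraries were -1.35, -1.37 and -1.78.

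TIMP1 and TIMP2 block most metalloproteinases, and TIMP2 also takes part in the activation of pro-MMP2 at the cell surface. Timp1 had 0 to 11 counts in any library and was at 0 in 3 WT, 3 Ahr-/- and 1 of the libraries labelled Ahrr-/-. Its counts summed to 23, 7 and 13 over the 6 libraries of each genotype, and 11 of the 23 WT counts were in F3. A difference in Timp1 was not tested. Timp2 was 7.32, 7.55 and 7.90 in WT, 7.73, 8.16 and 8.38 in Ahr-/-, and 7.45, 7.68 and 8.30 in the libraries labelled Ahrr-/-. In Ahr-/- 5 of 6 libraries exceeded each WT library, and M2 (7.73) lay among them. Mean normalized counts were 137 in WT and 217 in Ahr-/-, 1.58-fold higher in Ahr-/-, and the limma difference was -0.51 (SE 0.14, adjusted p = 0.0366). The call for Timp2, WT against Ahr-/-, was close to the threshold: with WT F1, F3 or M1, or Ahr-/- F1, F2, F3, M1 or M3, left out, the adjusted p lay between 0.0655 and 0.0968, and over all alternatives between 0.0208 and 0.134. Without F3 of both genotypes Timp2 differed by -0.45 (adjusted p = 0.134). Between Ahr-/- and the libraries labelled Ahrr-/- Timp2 differed by 0.32 (SE 0.15, adjusted p = 0.152), or 0.44 (adjusted p = 0.0342) without M1 labelled Ahrr-/-.

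Of 7 inhibitor genes listed, only Timp2 and Timp3 passed the minimum, and Timp3, an inhibitor bound to matrix, was higher in the libraries labelled Ahrr-/- than in Ahr-/- (difference -0.89, limma adjusted p = 0.0285). The call was lost in 8 of 22 alternatives, with F1, F2, M1 or M2 of Ahr-/- or F3, M1 or M3 labelled Ahrr-/- left out, and the difference was -0.37 (adjusted p = 0.288) without the last 3 together. The Timp2 span overlaps that of Cep295nl and the Timp1 span that of Syn1, with 0 shared exon bases in each case.

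ADAM8 is a leukocyte protease that sheds adhesion receptors, and its gene lies at chr7:139978932-139995207. Adam8 was 12.16, 12.46 and 13.13 in WT, 12.35, 12.75 and 13.46 in Ahr-/-, and 11.68, 12.40 and 13.16 in the libraries labelled Ahrr-/-. The 3 ranges overlapped over most of their length. No genotype comparison passed: WT minus Ahr-/- was -0.26 (95% interval -0.65 to 0.13), WT minus Ahrr-/- 0.10, and Ahr-/- minus Ahrr-/- 0.36 (SE 0.19, limma adjusted p = 0.193). In Adam8, without F3, M1 and M3 labelled Ahrr-/-, the last difference was 0.03.

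ADAM17 is the sheddase that releases TNF, its receptors, L-selectin and ligands of the EGF receptor. The gene lies at chr12:21323509-21373632, 14.1 Mb from Ahr on the same chromosome, and whether sequence flanking the altered Ahr gene differs between the strains was not tested. Adam17 was 9.05, 9.51 and 9.85 in WT, 9.59, 10.05 and 10.23 in Ahr-/-, and 8.90, 9.16 and 9.55 in the libraries labelled Ahrr-/-. Each Ahr-/- library lay above each library labelled Ahrr-/-, and WT lay across both. Ahr-/- exceeded the libraries labelled Ahrr-/- 1.79-fold in mean normalized counts, with a limma difference of 0.77 (SE 0.11, adjusted p = 0.000557). Between WT and Ahr-/- the difference was -0.49 (SE 0.14, limma adjusted p = 0.0423). The call for Adam17, WT against Ahr-/-, was fragile: without WT F1, F3, M1 or M3, or Ahr-/- F1, F2, F3, M2 or M3, the adjusted p of Adam17 lay between 0.0555 and 0.111, and over all alternatives between 0.0187 and 0.148. Without F3 of both genotypes Adam17 differed by -0.46 (adjusted p = 0.148). Exons of Adam17 share 311 bases with Iah1 on the opposite strand, and reads there cannot be assigned without strand. Iah1 had 25 to 58 counts in WT, 46 to 110 in Ahr-/- and 70 to 182 in the libraries labelled Ahrr-/-.

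Of 13 ADAM genes listed 9 were tested. Adam17 was the only one called between WT and Ahr-/-, and between Ahr-/- and the libraries labelled Ahrr-/- Adam9 (-0.65) and Adamdec1 (0.75) were called as well, the latter not in 8 of 23 alternatives (adjusted p up to 0.109), among them those without F1, F2, M1, M2 or M3 of Ahr-/- or F3 labelled Ahrr-/-. The partners that mature and carry ADAM17 and ADAM10, among them the iRhoms and furin, gave 0 called of 9 between WT and Ahr-/- with limma. Of 10 tested genes whose products ADAM17 sheds, Csf1r alone was called (-0.49, adjusted p = 0.00693, higher in Ahr-/-). Csf1r is also among the macrophage and dendritic cell markers used here, of which 3 of 8 were called between WT and Ahr-/-. The others were Cd68 (0.49), higher in WT, and Itgax (-0.42), higher in Ahr-/-, with calls lost in 14 of 22 and 14 of 23 alternatives.

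ADAMTS10 is a secreted protease tied to fibrillin microfibrils. Adamts10 (chr17:33523646-33553782) was 7.07, 7.58 and 7.95 in WT, 7.92, 8.12 and 8.41 in Ahr-/-, and 6.90, 7.37 and 7.87 in the libraries labelled Ahrr-/-. In Ahr-/- 5 of 6 libraries lay above all of WT, with F3 (7.92) just inside, and each Ahr-/- library lay above each library labelled Ahrr-/-. The mean normalized count was 133 in WT, 220 in Ahr-/- and 117 in the libraries labelled Ahrr-/-. WT differed from Ahr-/- by -0.57 (SE 0.15, limma adjusted p = 0.0232), and by -0.51 (adjusted p = 0.0634) without Ahr-/- F2, with adjusted p between 0.00858 and 0.0634 over all alternatives. Ahr-/- exceeded the libraries labelled Ahrr-/- by 0.70 (SE 0.15, adjusted p = 0.0101), but by 0.47 (adjusted p = 0.0883) without F3, M1 and M3. Of 24 ADAMTS and ADAMTS-like genes only 3 were tested between WT and Ahr-/-. Adamts6 was called along with Adamts10, also higher in Ahr-/- (-0.52, limma adjusted p = 0.0199, up to 0.0574 over alternatives, with the call lost without WT M3 or Ahr-/- F1, with limma voom and with no minimum), and was again higher there than in the libraries labelled Ahrr-/- (0.64).

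COL5A1 is the main chain of type V collagen, which lies inside type I collagen fibrils and sets their diameter, and is a product typical of fibroblasts. The gene spans chr2:27886381-28039510. Col5a1 had 26 to 75 counts in WT, 3 to 14 in Ahr-/- and 69 to 167 in the libraries labelled Ahrr-/-. On the log2 scale it was 6.38, 6.84 and 7.20 in WT, 5.44, 5.67 and 5.88 in Ahr-/-, and 6.78, 7.15 and 7.36 in the libraries labelled Ahrr-/-. All 6 Ahr-/- libraries lay below all others, although their total counts exceeded those of most WT libraries. Mean normalized counts were 61.7, 7.20 and 81.9, so Ahr-/- was 8.56-fold below WT and 11.4-fold below the libraries labelled Ahrr-/-. The limma differences were 1.17 (95% interval 0.86 to 1.48, adjusted p = 7.9e-05) and -1.42 (SE 0.14, adjusted p = 1.75e-05), and with limma voom 3.14 and -3.52. Col5a1 did not differ past the threshold between WT and the libraries labelled Ahrr-/- (-0.25, 95% interval -0.62 to 0.11).

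Col5a1 is set beside markers of cells that make collagen or line vessels. The fibroblast sum had medians of 188 in WT, 176 in Ahr-/- and 542 in the libraries labelled Ahrr-/-, and for the 3 fibroblast markers tested between WT and Ahr-/- the median difference was 0.22, with none called by limma. The endothelial sum, of which Pecam1 made up 95.3%, was 2592 to 3846 in WT and 1910 to 2342 in Ahr-/-, and Pecam1 was called (0.63, limma adjusted p = 0.00116). The endothelial markers Cdh5 (-0.70, limma adjusted p = 0.0318) and Eng (-0.67, limma adjusted p = 0.0217) were called between Ahr-/- and the libraries labelled Ahrr-/- in the direction of Col5a1, with calls lost in 9 of 21 and 3 of 17 alternatives. These include, for Cdh5, leaving out F2, M1, M2 or M3 of Ahr-/- or F3, M1 or M3 labelled Ahrr-/-, and for Eng F1, F2 or M1 of Ahr-/-. Across the 18 libraries, deviations of Col5a1 and of the fibroblast sum had r = -0.06 (rho = -0.12, r = 0.04 without 2 libraries). The part of RNA from such cells in the Col5a1 difference was not tested. Of 5 fibrillar collagen genes tested, Col5a1 alone was called between WT and Ahr-/-, and the median difference of the 5 was 0.15. Between Ahr-/- and the libraries labelled Ahrr-/- 3 were called, Col5a1 and Col1a2 (-1.09) higher in the latter and Col27a1 (0.59) higher in Ahr-/-. Col1a2 is itself among the fibroblast markers used here, whose sum was higher in the libraries labelled Ahrr-/-, and the part of fibroblast RNA in its difference was not tested. The Col1a2 call was lost in 11 of 21 alternatives (adjusted p up to 0.0892), among them those without F1, F2, M1, M2 or M3 of Ahr-/- or F3, M1 or M3 labelled Ahrr-/-, and that of Col27a1 without the last 3 together. For Col5a1 the difference was -1.37 without F3, M1 and M3 labelled Ahrr-/-. Of 9 genes for hydroxylation, crosslinking and folding of collagen, limma called 0 in each genotype comparison, and of 8 other collagen genes 0 between WT and Ahr-/-. Between Ahr-/- and the libraries labelled Ahrr-/- 1 of these 8 passed, Col12a1 (-0.59, limma adjusted p = 0.0445), but not in 16 of 22 alternatives, including those without any 1 of the libraries except Ahr-/- M1 and F2 or M1 labelled Ahrr-/-. An annotated noncoding RNA on the other strand, Gm13372, shares 113 exon bases with Col5a1 and was not analysed here.

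Sex was compared over all 18 libraries with genotype in the model. With limma 0 of 9 members passed, beside 3.06% of 11468 genes, with 1 member (Adam8) and 2145 genes at an unadjusted p under 0.05, and limma voom gave 0 members. Adam8 was lower in males, by -0.51 (95% interval -0.86 to -0.15, adjusted p = 0.113). Its means in females and males were 12.61 and 12.52 in WT, 13.13 and 12.52 in Ahr-/-, and 12.88 and 12.05 in the libraries labelled Ahrr-/-. For Adam8, males against females, the adjusted p without WT F1 was 0.0415 and without WT M1 0.0393, each with a difference of -0.59. In the same comparison 7 of 7 enterocyte markers were higher in males, with a median difference of 0.53 against 0.01 over all genes. Of 6 eosinophil markers tested 5 were lower in males, with a median of -0.12, and limma called 0 in either list. The part of cell composition in the Adam8 difference was not tested. Over all genes in males against females, 19.7% of called genes were higher in males on the deposited scale and 50.4% with limma voom, which moved the median difference of all genes from 0.01 to 0.17.

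The interaction of genotype (WT and Ahr-/-) with sex was called by limma for 0 of 9 members, beside 0% of 11346 genes, with 0 members and 533 genes at an unadjusted p under 0.05, and limma voom also gave 0 genes. On the deposited scale the interaction estimate was 0.52 for Adam8 (95% interval -0.23 to 1.27), and with limma voom it was -1.07 for Mmp8 and -0.89 for Col5a1. Mmp27 was higher in WT males (7.54) than WT females (7.14), where F1 was at 6.75, F2 at 7.30 and F3 at 7.37. Its interaction estimate was 0.42 (SE 0.27). These intervals are wide, with 3 libraries a sex and genotype. In genotype by sex, WT and Ahr-/-, limma voom moved the median of all genes by -0.15.

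Within groups, Mmp25 and Mmp9 varied together, and Adam8 less closely with either. Deviations from the genotype-by-sex means were compared over the 18 libraries, which share depth and cell composition, as a description. Over the 36 pairs of 9 members the median r was 0.27, and 29 pairs were above 0. The highest was Mmp25 with Mmp9 (r = 0.91, rho = 0.90, r = 0.83 without Ahrr-/- F3 and M3), and the lowest Adamts10 with Col5a1 (r = -0.39, rho = -0.41, r = -0.16 without WT F1 and Ahrr-/- M2). Adam8 had r = 0.62 with Mmp25 (rho = 0.58, r = 0.43 without 2 libraries) and r = 0.47 with Mmp9 (rho = 0.42, r = 0.35 without 2 libraries). Mmp25 and Mmp9 were also close to the sum of eosinophil markers, with r = 0.93 (rho = 0.93, r = 0.85 without 2 libraries) and r = 0.85 (rho = 0.81, r = 0.69 without 2 libraries). Adam8 (r = 0.71, rho = 0.71, r = 0.61 without 2 libraries) and Adamts10 (r = 0.62, rho = 0.55, r = 0.53) were positive with that sum too. With the neutrophil sum r was 0.63 for Mmp25 (rho = 0.67, r = 0.62 without 2 libraries), 0.66 for Mmp9 (rho = 0.64, r = 0.71) and 0.71 for Adam8 (rho = 0.75, r = 0.65). Adam8 was opposed to the enterocyte sum (r = -0.86, rho = -0.86, r = -0.83 without 2 libraries). Mmp27 and Col5a1 did not follow the eosinophil sum, with r = 0.02 (rho = 0.22) and r = 0.04 (rho = 0.12), and against the enterocyte sum Mmp27 had r = -0.53 (rho = -0.58, r = -0.49 without 2 libraries). Adamts10 (r = -0.63, rho = -0.60, r = -0.60 without 2 libraries), Adam17 (r = -0.60, rho = -0.57, r = -0.38) and Mmp25 (r = -0.59, rho = -0.57, r = -0.36) were also opposed to that sum. Against the fibroblast sum, r was -0.67 for Adam8 (rho = -0.59, r = -0.50 without 2 libraries). It was -0.66 for Mmp25 (rho = -0.46, r = -0.25 without 2 libraries) and -0.57 for Mmp9 (rho = -0.36, r = -0.08).

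**Figure D5:**
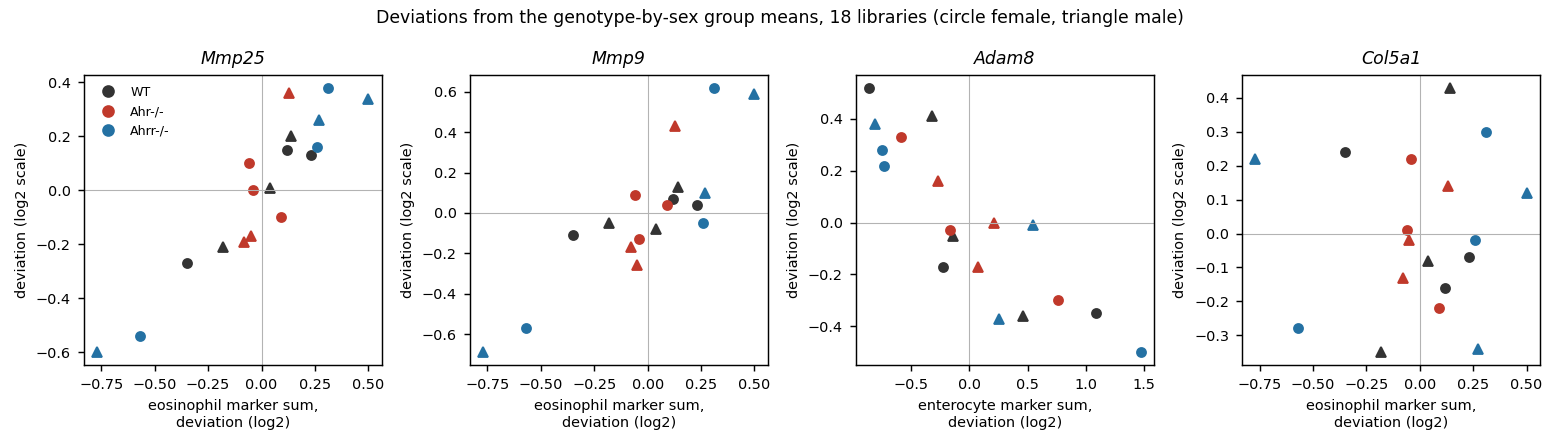
Deviation of Mmp25, Mmp9, Adam8 and Col5a1 from their genotype-by-sex means against the deviation of a marker sum (log2), with 1 point for each of 18 libraries. Mmp25 follows the eosinophil marker sum (r = 0.93), Adam8 runs opposite to the enterocyte sum (r = -0.86), and Col5a1 shows no such relation (r = 0.04).

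Because the eosinophil sum was higher in Ahr-/- (median 44812) than in WT (35156), Mmp25 moved with this sum among the libraries of a group but opposite to it between these genotypes. Within the sum, Alox15 had a median of 24900 in Ahr-/- and 17300 in WT, and Ccr3 12100 and 12600. By the limma difference, 6 of 6 eosinophil markers tested were higher in Ahr-/- than in WT, with a median of -0.36 against 0.00 over all genes. Of these 2 were called, Alox15 and Prg2. Timp2, Adam17 and Adamts10 were higher in Ahr-/- as well, and the part of eosinophil RNA in their differences was not tested. Alox15 was called as higher in Ahr-/- (-0.58, limma adjusted p = 0.023), with the call lost in 8 of 23 alternatives. Among 11467 genes, those most like Mmp25 in these deviations were the Fc receptor gene Fcgr3 (r = 0.96, rho = 0.94), the integrin gene Itgb2 (r = 0.96, rho = 0.94) and the phosphatase gene Ptpn1 (r = 0.95, rho = 0.93). Most like Mmp9 were Selplg (r = 0.99, rho = 0.94), Pim1 (r = 0.99, rho = 0.98) and Gnai2 (r = 0.98, rho = 0.96). Most like Adam8 were the kinase gene Syk (r = 0.98, rho = 0.97), Chd7 (r = 0.97, rho = 0.98) and Synj1 (r = 0.96, rho = 0.95). Leaving out the 2 libraries farthest out left each r at 0.90 or above.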

How the data were processed

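The deposited table holds log2-scale values that the authors made with DESeq2's variance-stabilizing transformation from gene counts (nf-core/rnaseq, with STAR 2.5.2 and RSEM 1.3.0 in the submitters' processing notes, GRCm38, Ensembl release 86). RNA was amplified with a kit that does not mark strand, and reads were single-ended. The transformation was inverted, and 100% of values gave whole counts (tolerance 0.0001), which served for depth, normalized counts and 2 alternatives. Genes were tested with limma 3.58.1 in R 4.3.3 (mean-variance trend, sex or genotype as covariate, Benjamini-Hochberg over all genes tested, adjusted p below 0.05, mean at least 1 above the lowest value) and the test was tried on simulated data. Differences are the group named first minus the second. Exon lengths and positions came from GENCODE M21 and RefSeq GRCm38.p6, and 22685 of 22708 genes matched RefSeq. Genes named include the 10 members, the 3 genes most like Mmp25, Mmp9 and Adam8, neighbours, overlapping genes, Ahr and Ahrr. From the protease, matrix and marker lists some of the called genes are named, and some marker genes that were not called. Members and lists were chosen with earlier results of these data known. Alternatives changed the minimum, scaling, trend, covariate, libraries fitted and replicate block, or used limma voom or log2(normalized count + 1).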

Additional observations from a re-analysis of the deposited data

Results flagged for a closer look

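In groups of 6 libraries, the highest or lowest value stood far from the rest in 5 of 57 groups examined, where chance gives about 1 in 20. Mmp27 was lowest in WT F1 (6.75), a gap of 0.66 of the WT range. The library WT F1 also had the lowest eosinophil and highest enterocyte marker sum of WT. The number of genes with reads was highest in WT F3 (20244, a gap of 0.73 of the range) and in Ahr-/- F3 (19694, 0.71). The fibroblast marker sum was highest for WT in F3 (326, 0.63), and the mast cell marker sum was lowest for the libraries labelled Ahrr-/- in M2 (63, 0.65). Causes of these values were not tested.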

How the results depend on the processing

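Over the alternatives, 787 of 860 member results kept their direction and side of the threshold, 26 lost a call, 3 gained one and 44 turned in direction, none of the 44 called before or after. In WT against Ahr-/-, Mmp25 was tested in 23 alternatives, Mmp27 and Col5a1 in 22 each and Mmp8 in 20, and each passed where it was tested. Mmp8 (mean 6.55 in WT, 5.62 in Ahr-/-) and Col5a1 (6.85 and 5.68) met the minimum through WT alone. Passing in the alternatives where they were tested is thus not separate support for them. Counts near 5.02 are limited by depth: Mmp8 and Col5a1 rest on 0 to 75 counts a library in WT and Ahr-/-, and log2(normalized count + 1) or limma voom gives them larger differences (2.81 and 3.10 for Mmp8, WT against Ahr-/-, and 2.96 and 3.14 for Col5a1, WT against Ahr-/-). Of 7 members called between WT and Ahr-/-, 2 were called at a minimum of 3 above the floor, where fewer genes are tested, 4 without F3 of both genotypes (chosen after seeing the data), and 4 to 7 when 1 library was left out (4 without WT F3 or Ahr-/- F2). Of 6 between Ahr-/- and Ahrr-/-, 2 were called at that minimum and 6 to 7 with 1 library out. WT against Ahrr-/- gave 0 to 0 members with 1 library out, and males against females 0 to 1 (1 without WT F1 or M1). 

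Over all genes, WT against Ahr-/- gave 1003, 553 with all 18 libraries fitted, 586 without both F3, and 623 (without Ahr-/- F1) to 1124 with 1 library out. WT against Ahrr-/- gave 9. It gave 4 with no minimum, centring on the median, log2(normalized count + 1), limma voom, or without F3, M1 and M3 labelled Ahrr-/- (chosen after seeing the data), 5 with the minimum of 3 or quantile normalization, 14 with all 18 libraries, and 4 to 25 with 1 out (25 without Ahrr-/- F1, 5 without F3, 4 without WT F1, F2, M2 or M3 or Ahrr-/- F2, M2 or M3). Ahr-/- against Ahrr-/- gave 1708, 828 with the minimum of 3, 994 without the sex covariate, 626 without Ahrr-/- F3, M1 and M3, and 818 to 2574 with 1 out (907 without Ahr-/- F1, 970 F2, 839 M1, 933 M2, 818 M3, and without Ahrr-/- 2574 F1, 1001 F3, 923 M3). The comparison of males against females gave 351, 163 with no minimum, 5 in WT alone, and 142 to 733 with 1 out (without WT 733 F1, 181 F2, 595 M1, 160 M3, without Ahr-/- 205 F1, 159 F2, 142 M1, 180 M2, 211 M3, without Ahrr-/- 206 F1, 173 F2, 577 F3, 188 M3). Genotype by sex, WT and Ahr-/-, gave 0 with no minimum and with limma voom. The cause was not tested.

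Directions turned where the difference was small. Without F3, M1 and M3 labelled Ahrr-/-, WT against Ahrr-/- became -0.18 for Mmp25, -0.21 for Mmp27, -0.19 for Mmp9, -0.29 for Adam8 and -0.10 for Adamts10, and Ahr-/- against Ahrr-/- became -0.01 for Mmp9. In males against females, Mmp27 became -0.02 with centring on the median, -0.05 with quantile normalization and -0.01 with log2(normalized count + 1), Mmp8 0.03 without both F3, and with limma voom Timp2 0.11, Adamts10 0.06 and Col5a1 0.11. In WT alone Mmp9 became 0.07, Timp2 0.11 and Adam17 0.14. In genotype by sex, WT and Ahr-/-, Adamts10 became -0.08 with limma voom. With 1 library out, WT against Ahrr-/- ran from -0.02 to 0.25 for Mmp25, -0.12 to 0.17 for Mmp27, -0.11 to 0.23 for Mmp9 and -0.03 to 0.22 for Adam8, and males against females from -0.08 to 0.11 for Mmp27, -0.09 to 0.04 for Timp2, -0.13 to 0.01 for Adamts10 and -0.09 to 0.03 for Col5a1. The cause was not tested.

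The replicate labels were also fitted as a replicate block. Libraries with the same label correlated between -0.585 and 0.476 in their deviations, with both signs. These deviations are taken within 3 libraries a sex and genotype and include cell composition, so they do not settle whether the labels pair the samples. The replicate block gave 918 genes for WT against Ahr-/-, 4 for WT against Ahrr-/- and 1946 for Ahr-/- against Ahrr-/-, and changed no member's call.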

Other observations

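Other matrix genes were described from lists. In the plasminogen system, which activates metalloproteinases, Serpinb2, an inhibitor of urokinase, was the only called gene of 4 between WT and Ahr-/-, higher in WT (1.33, SE 0.25, limma adjusted p = 0.00255), and lower in Ahr-/- than in the libraries labelled Ahrr-/- (-1.14, adjusted p = 0.00392). The collagen-binding integrin genes Itga2 (-0.50, adjusted p = 0.0111) and Itgb1 (-0.43, adjusted p = 0.0152) were higher in Ahr-/- than in WT, 2 of 4 collagen receptor genes tested, and Itgb1 was higher there than in the libraries labelled Ahrr-/- (0.46). Without F3 of WT and Ahr-/- both lost the call against WT (adjusted p = 0.0638 for Itga2, WT against Ahr-/-, and 0.0597 for Itgb1, WT against Ahr-/-), as did Itga2 with all 18 libraries fitted (0.0813), and Itgb1, Ahr-/- against Ahrr-/-, lost it without Ahr-/- M3 (0.0507). Of 10 basement membrane and other matrix genes 0 were called by limma between WT and Ahr-/-, while Fn1 (-0.85) and Nid2 (-0.48) were 2 of 13 called between Ahr-/- and the libraries labelled Ahrr-/-, both higher in the latter, where fibroblast markers were higher too, and their part was not tested. Fn1 lost its call in 9 of 22 alternatives (adjusted p up to 0.12), including those without F1, F2, M1 or M3 of Ahr-/- or F3 or M3 labelled Ahrr-/-, and Nid2 in 8 of 19 (up to 0.0892), including those without F1, F2, M1 or M3 of Ahr-/- or F3 labelled Ahrr-/-.

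Although 0 protease members were called by sex, several genes of the lists were lower in males over the 18 libraries: Col17a1 (-1.30, limma adjusted p = 0.004), and the ADAM17 substrates Tnf (-0.87, adjusted p = 0.0129) and Tnfrsf1b (-0.91, adjusted p = 0.0176). In the 6 WT libraries alone none of these 3 passed (adjusted p = 0.998 for each). Between Ahr-/- and the libraries labelled Ahrr-/-, the ADAM17 substrate Areg was lower in Ahr-/- (-0.97, adjusted p = 0.0127, up to 0.0375 over alternatives). The substrate Il6ra (-0.66) and the ADAM17 and ADAM10 partners Pcsk5 (-0.84) and Tspan15 (-0.78) were called as lower too, but lost the call in 14 of 22, 14 of 22 and 13 of 22 alternatives. Without F3, M1 and M3 labelled Ahrr-/- the differences were -0.75 (Il6ra), -0.37 (Pcsk5, adjusted p = 0.382) and -0.34 (Tspan15, adjusted p = 0.322).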
